A study of Homo sapiens with 8 samples.

Results

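The regions described here are all those on chromosome 19 in 3 deposited lists of called binding regions from the WA09 line, established human embryonic stem cells. They number 4736 of 289380 TEAD4 regions in DMSO cells, 4852 of 262109 TEAD4 regions in SB431542 cells and 8401 of 420548 SMAD2 regions in DMSO cells, together 17989 of 972037. They were chosen by chromosome name only, from lists that are themselves a readout, so their numbers are given as a description. The cells grew on Matrigel in MEF-conditioned DMEM/F12 with 20% KO serum and were treated for 4 h with SB431542 at 10 µM or with its solvent, DMSO, before chromatin immunoprecipitation and sequencing. There are 8 groups of 1 library: TEAD4, SMAD2, input DNA and rabbit IgG, from cells of either treatment, with antibodies from Aviva for TEAD4 and from Cell Signaling for SMAD2. The other 5 groups, SMAD2 under SB431542 and the controls among them, were not analysed here. All groups share the same cell line, for which the labels give no genetic change, and none has a replicate, so each interval below covers counting error only and treats neighbouring regions as independent.

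TEAD4 is a DNA-binding protein of the Hippo pathway that brings the co-activators YAP and TAZ to enhancers. SMAD2 carries the signal of activin, Nodal and TGF-β from the type I receptors to the nucleus and needs partner proteins to reach its sites, and SB431542 blocks those receptors. In human embryonic stem cells activin and Nodal signalling maintains the pluripotent state. Chromosome 19 is known for its gene density, its high GC content and its clusters of KRAB zinc finger genes, whose products silence transposable elements. The RefSeq gene table (GRCh38.p14, used for names and neighbours only) lists 1451 protein-coding genes on it, the highest number but 1 among the 23 chromosomes compared (the autosomes and X), and 270 on chromosome 18, the chromosome compared below. Of 517 protein-coding genes with a ZNF symbol, 250 (48.4%) are on chromosome 19 and 9 on chromosome 18. The longest run of neighbouring ZNF genes holds 27 members, from ZNF737 to ZNF681. The lists are on hg19, so these genes were not placed on the regions, and windows are described by position and not as zinc finger clusters. No sequence of the regions is shown, since no hg19 sequence was used here.

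Chromosome 19 held few TEAD4 regions for its length in DMSO cells and an ordinary number of SMAD2 regions. Per Mb of the span between the first and last region, without the stretch that holds no region, the TEAD4 list of DMSO cells had 84.7 regions on chromosome 19 and 106 on chromosome 18, a ratio of 0.80. Only chromosome 22 was lower (79.8) among the 23, whose median was 102. The SMAD2 list had 150 regions per Mb on chromosome 19 and 155 on chromosome 18, and chromosome 19 ranked 11th from the lowest. Under SB431542 TEAD4 had 86.8 regions per Mb on chromosome 19 and 91.4 on chromosome 18, the fourth lowest density. Against the density over all 23 chromosomes, chromosome 19 stood at 0.83 for TEAD4 in DMSO, 0.94 for TEAD4 in SB431542 and 1.02 for SMAD2.

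**Figure D1:**
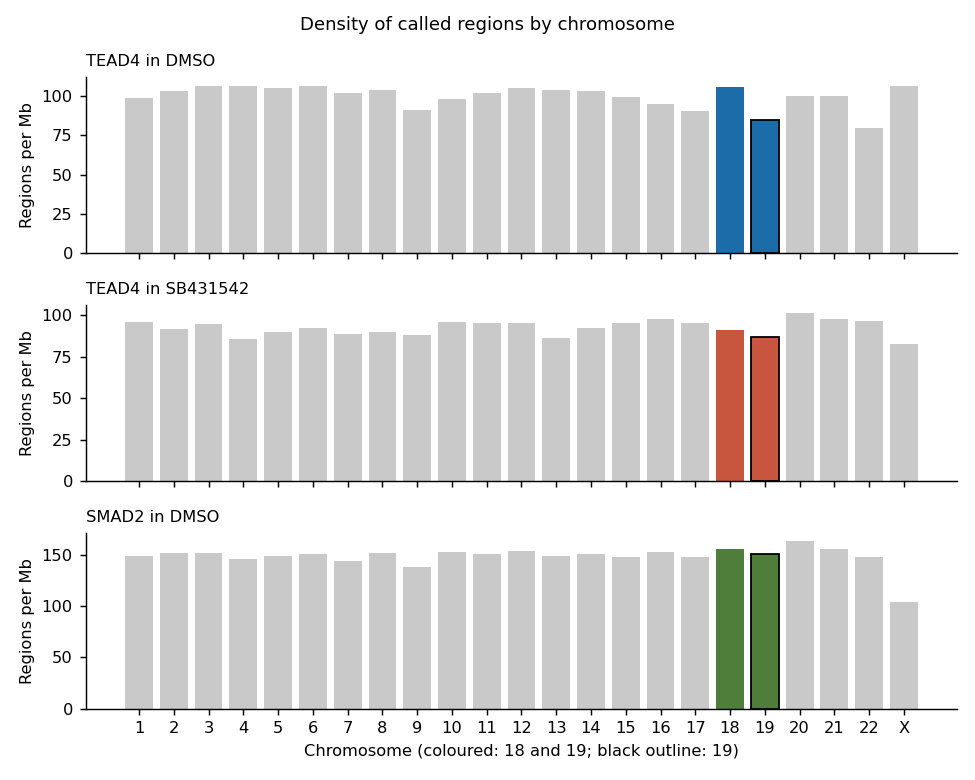
Called regions per Mb (vertical axes, from 0) on each of 23 chromosomes (horizontal axis) in the 3 lists, with 1 library per list. Chromosome 19 (black outline) is at 84.7 in the TEAD4 list of DMSO cells, where only chromosome 22 is lower, and at 150 in the SMAD2 list, close to most others.

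The number of TEAD4 regions per SMAD2 region puts the same difference on 1 scale. In DMSO cells it was 0.56 on chromosome 19, 0.68 on chromosome 18 and 0.69 over the whole lists. Again only chromosome 22 was lower (0.54). With the TEAD4 list of SB431542 cells, set against the same SMAD2 list, it was 0.578 on chromosome 19. That was the lowest of the chromosomes compared, though close to chromosome 13 (0.581) and chromosome 18 (0.589), with 0.623 over the whole lists. The TEAD4 list of SB431542 cells was longer than that of DMSO cells on chromosome 19 (1.02 regions per DMSO region) and shorter over the whole lists (0.91). This ratio was also above 1 on chromosomes 22 (1.21), 17 (1.06), 16 (1.03) and 20 (1.01). The lists of the treatments were made in different ways: on chromosome 19 all starts of both DMSO lists lie on a 50 bp grid, against 1.98% of the SB431542 starts. A change of density between the treatments therefore cannot be told apart from a change in how the list was made.

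Region widths on chromosome 19 were those of the lists as a whole. The median was 199 bp for TEAD4 in DMSO (interquartile range 149 to 249), 145 bp for TEAD4 in SB431542 and 149 bp for SMAD2, the same as on chromosome 18. Wide TEAD4 regions were somewhat more frequent: 9.23% of the DMSO regions on chromosome 19 and 7.68% on chromosome 18 were 349 bp or wider, and 10.2% and 13.1% were 99 bp wide. TEAD4 regions covered 1.82% of the span of chromosome 19 in DMSO cells and SMAD2 regions 2.39%, against 2.18% and 2.46% on chromosome 18.

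The low number of TEAD4 regions in DMSO cells was found further down the list and not at its head. Row order is read here as a ranking because widths fall along each list, although no label says so. Chromosome 19 supplied 6 of the first 100 rows of the DMSO TEAD4 list (6.0%, 95% Wilson interval 2.78 to 12.5%), 25 of the first 1000 (2.5%, 1.70 to 3.67%) and 105 of the first 5000 (2.1%, 1.74 to 2.54%). In the first 10% of the rows its share was 1.88% (1.73 to 2.04%), and in the last 10% 1.34% (1.22 to 1.48%). The span of chromosome 19 makes up 1.96% of the 23 chromosomes, so the first 10% was near that share and the last 10% below it. The fall was not even: of 10 equal parts of the list, part 6 had 1.36% and part 7 had 1.80%.

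The SMAD2 list showed no such fall. Its share on chromosome 19 was 1.90% (1.77 to 2.04%) in the first 10% and 1.97% (1.84 to 2.11%) in the last. For TEAD4 under SB431542 the share was 1.95% (1.79 to 2.12%) in the first 10% and 1.85% (1.69 to 2.02%) in the last. On chromosome 18 the TEAD4 share in DMSO cells went the other way, from 2.70% (2.52 to 2.89%) in the first 10% to 2.90% (2.71 to 3.10%) in the last, with intervals that overlap.

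**Figure D2:**
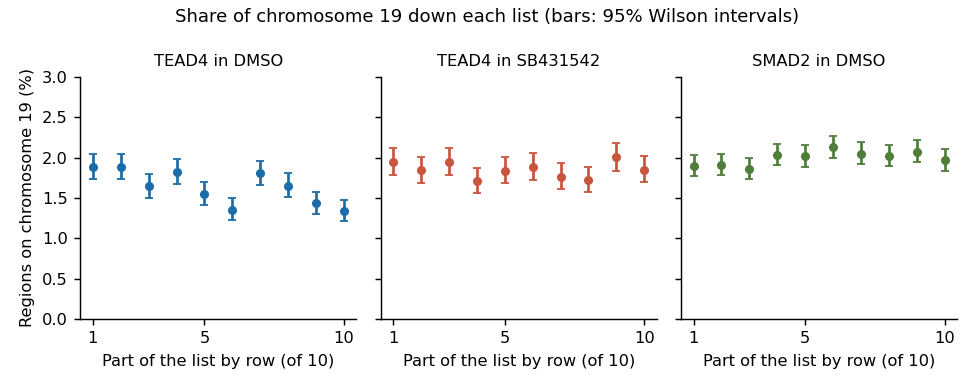
Share of regions that lie on chromosome 19 (vertical axis, percent) in each of 10 equal parts of a list by row (horizontal axis), with 95% Wilson intervals. The share for TEAD4 in DMSO goes from 1.88% in the first part to 1.34% in the last, while that for SMAD2 is 1.90% and 1.97%.

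Along the chromosome TEAD4 regions of DMSO cells were sparsest near the end of the short arm. The longest stretch without a region of any list, chr19:24618950-27731698, spans 3.11 Mb and lies where the centromere is known to be, and it was used to separate the arms. In DMSO cells TEAD4 had 77.5 regions per Mb on the short arm (exact Poisson interval 74.0 to 81.0) and 90.4 on the long arm (87.1 to 93.8), a ratio of 1.17. SMAD2 had 142 (138 to 147) and 156 (152 to 161), a ratio of 1.10, and TEAD4 under SB431542 had 77.5 and 94.1, a ratio of 1.21. On chromosome 18 the same ratios lay between 1.02 and 1.03, so that the arms of chromosome 19 differed more than those of chromosome 18 in each list.

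Within the short arm, stretches chosen after the counts were seen gave a wider spread. From the first region to 6 Mb, TEAD4 in DMSO had 61.8 regions per Mb (55.6 to 68.5). From 6 to 20 Mb it had 76.8 (72.3 to 81.5), and from 20 Mb to the empty stretch 99.6 (90.7 to 109), 1.61 times the density of the first stretch. This inner part of the short arm is known for zinc finger genes, which were not placed on hg19 here. The SMAD2 densities of the 3 stretches were 136, 144 and 145 per Mb, a ratio of last to first of 1.07. For TEAD4 under SB431542 they were 65.9, 82.5 and 77.1, a ratio of 1.17, so both TEAD4 lists were sparsest in the first 6 Mb. Beside the empty stretch the intervals of their densities did not overlap (90.7 to 109 and 69.3 to 85.5). This was not particular to that stretch, since the SB431542 list was also the sparser on both arms of chromosome 18. The intervals there were 98.4 to 109 and 85.3 to 94.8 on the short arm, and 104 to 109 and 89.3 to 94.2 on the long arm. GC content, copy number and mappability were not measured, and their part in these densities was not tested.

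**Figure D3:**
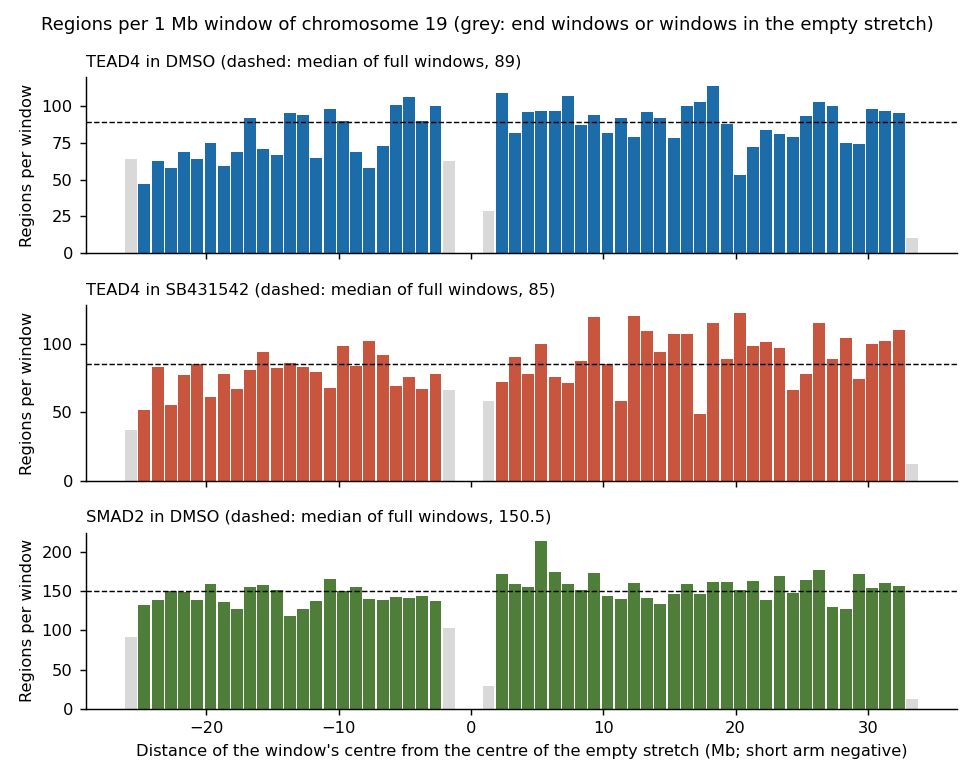
Regions per 1 Mb window of chromosome 19 (vertical axes, from 0) against the distance of the window's centre from the centre of the empty stretch (horizontal axis, Mb, short arm negative), with the median of the 54 full windows dashed and incomplete windows grey. TEAD4 counts in DMSO lie mostly under the median of 89 on the outer short arm, while SMAD2 counts stay nearer to theirs (150.5).

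The 54 full windows of 1 Mb held 47 to 114 TEAD4 regions in DMSO cells (median 89), 49 to 122 under SB431542 (median 85) and 118 to 214 SMAD2 regions (median 150.5). The variance between windows was 3.03 times the mean for TEAD4 in DMSO and 1.73 times for SMAD2, against 1.77 and 1.13 times over 73 windows of chromosome 18. By this measure both DMSO lists were more uneven along chromosome 19 than along chromosome 18. The SMAD2 figure includes 1 window far above the others, with 214 regions where the next highest held 177, and it was not computed without that window. For TEAD4 under SB431542 the figures were 3.72 and 3.99. A value of 1 would mean that windows differed by counting error only.

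The windows with the fewest and the most regions were not the same in the 3 lists. TEAD4 in DMSO was lowest at 1 to 2 Mb (47 regions), where SB431542 cells had 52, the lowest count but 1 of that list, and SMAD2 had 132. Its next lowest was 46 to 47 Mb with 53 regions, and that window held the highest count of all for TEAD4 under SB431542, 122. After these came 3 to 4 Mb and 18 to 19 Mb with 58 each, where SB431542 cells had 55 and 102. The lists thus differed at 46 to 47 Mb and at 18 to 19 Mb, and in the other direction at 43 to 44 Mb, the lowest window under SB431542 with 49 regions, where DMSO cells had 103. SMAD2 counts in these windows were 152, 140 and 147, against a median of 150.5.

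The highest counts of TEAD4 in DMSO were 114 at 44 to 45 Mb, 109 at 28 to 29 Mb and 107 at 33 to 34 Mb. In the first of these SB431542 cells also had many (115), and 14.0% of its DMSO regions overlapped SMAD2. This share was 7.34% at 28 to 29 Mb, 8.41% at 33 to 34 Mb and 7.67% in the list as a whole. Under SB431542 the highest windows after 46 to 47 Mb were 38 to 39 Mb (120) and 35 to 36 Mb (119). SMAD2 peaked at 31 to 32 Mb with 214 regions, followed by 52 to 53 Mb (177) and 32 to 33 Mb (174), and was lowest at 12 to 13 Mb (118), 8 to 9 Mb (127), and 13 to 14 Mb and 54 to 55 Mb (128 each). The SMAD2 peak at 31 to 32 Mb had no counterpart among the top windows of TEAD4, which had 97 regions there in DMSO and 100 under SB431542.

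Over the 54 windows the counts of TEAD4 in DMSO and under SB431542 had a Pearson r of 0.10 (Spearman rho 0.05). For TEAD4 and SMAD2 in DMSO r was 0.29 (rho 0.30), and for TEAD4 under SB431542 and SMAD2 in DMSO 0.23 (rho 0.19). On chromosome 18 the values were 0.20, 0.06 and 0.21 over 73 windows. These describe windows that share sequence composition and mappability, and are no measure of joint binding.

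The 105 regions of chromosome 19 among the first 5000 rows of the DMSO TEAD4 list were spread over most of its windows. Of the 54 full windows, 10 held none of them, 15 held 1 and 16 held 2. The window at 45 to 46 Mb held 7, picked out after the counts were seen, and it also held 4 of the first 5000 SB431542 rows and 2 of the first 5000 SMAD2 rows. Of its 88 TEAD4 regions in DMSO, 13 were called again under SB431542 and 9 overlapped SMAD2. In the list as a whole 5.69% were called again and 7.67% overlapped SMAD2. The window at 48 to 49 Mb also held 13 recalled regions, of 84. Of all the first 5000 rows 29.6% were called again, so the count of 13 is not independent of how the window was picked.

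TEAD4 regions of chromosome 19 were called again under SB431542 more often than those of chromosome 18. Of the 4736 DMSO regions 318 overlapped an SB431542 region by at least 1 bp (6.71%, 6.04 to 7.46%), and on chromosome 18 410 of 7912 did (5.18%, 4.72 to 5.69%). In the list as a whole the share was 5.69%. Chromosome 19 exceeded chromosome 18 by 1.53 percentage points (95% Newcombe interval 0.68 to 2.42), and 1.06 points (0.38 to 1.81) against all other chromosomes together. The share was the third highest of the 23, after chromosomes 22 (7.48%) and 16 (6.73%).

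A list with more regions is met more often, so each share was set beside a share that follows by arithmetic. This arithmetic share uses the number of the partner's regions in the same 1 Mb window. It also uses their mean width on the chromosome and each region's own width. That share was 3.16% on chromosome 19 and 3.24% on chromosome 18. The observed share was therefore 2.13 times the arithmetic one on chromosome 19 (1.91 to 2.36), 1.60 times on chromosome 18 (1.45 to 1.76) and 1.72 times over the 23 chromosomes. It was the highest ratio of the 23, ahead of chromosome 22 (2.04, 1.79 to 2.32), whose interval overlaps it, while chromosome 18 had the second lowest. The arithmetic assumes random placement inside a window, so a ratio above 1 also holds any unevenness at shorter distances.

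Both arms showed it. On the short arm 129 of 1900 regions (6.79%, 5.74 to 8.01%) were called again, 2.41 times the arithmetic share (2.04 to 2.85), and on the long arm 189 of 2836 (6.66%, 5.80 to 7.64%), 1.97 times (1.71 to 2.26). In the first 6 Mb, where regions were sparse, 31 of 365 (8.49%, 6.05 to 11.8%) were called again, 3.51 times the arithmetic share (2.50 to 4.87). In the stretch from 20 Mb to the empty stretch it was 26 of 460 (5.65%, 3.89 to 8.15%), 2.10 times. The intervals of these stretches overlap.

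**Figure D4:**
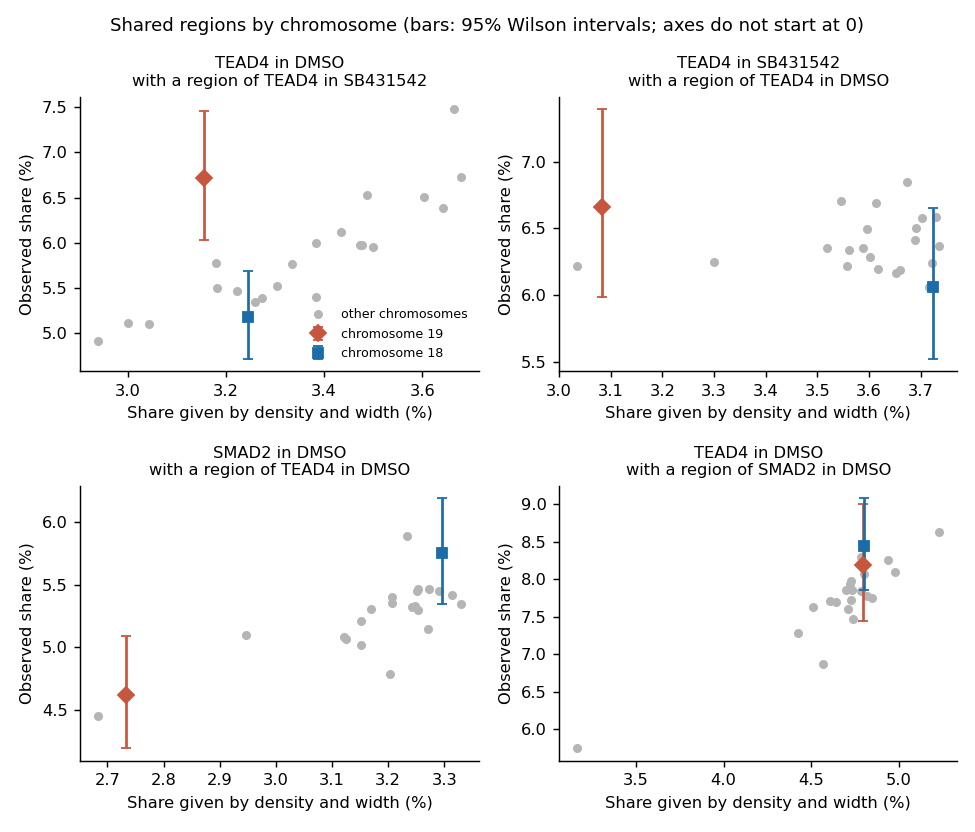
Observed share of regions with a partner in the other list (vertical axes, percent, with 95% Wilson intervals for chromosomes 19 and 18) against the share given by density and width (horizontal axes, percent), 1 point for each of 23 chromosomes. In the first panel chromosome 19 is at 6.71% observed and 3.16% from density, above the band of the other chromosomes, while in the panels with SMAD2 it lies within or near that band.

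The share called again fell down the list on both chromosomes. All 6 regions of chromosome 19 among the first 100 DMSO rows had an SB431542 partner, as did all 100 of those rows. In rows 101 to 1000 it was 12 of 19 (63.2%, 41.0 to 80.8%; whole list 65.3%), and on chromosome 18 13 of 22 (59.1%). In rows 1001 to 5000 it was 23 of 80 on chromosome 19 (28.7%, 20.0 to 39.5%) and 17 of 101 on chromosome 18 (16.8%, 10.8 to 25.3%), with 19.8% over the whole list. In the first 1000 rows together 68.8% of the whole list were called again, and in the first 5000 29.6%. In rows 5001 to 20000 the shares were 9.64% on chromosome 19 and 9.65% on chromosome 18, against 10.3% in the list. Past row 20000 it was 250 of 4351 (5.75%, 5.09 to 6.48%) and 336 of 7361 (4.56%, 4.11 to 5.07%), with 4.99% over the whole list, and these late rows hold most of the recalled regions of both chromosomes.

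**Figure D5:**
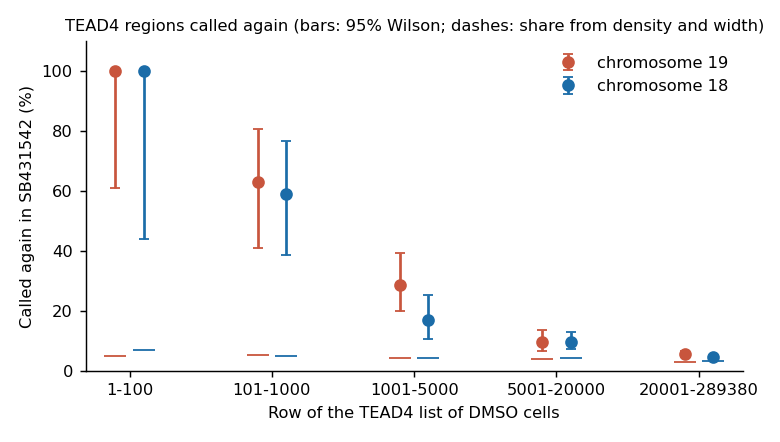
Percent of TEAD4 regions of DMSO cells called again under SB431542 (vertical axis) by row of the DMSO list (horizontal axis) on chromosomes 19 and 18, with 95% Wilson intervals and the share given by density and width as dashes. Both chromosomes fall from 100% in rows 1 to 100 to 5.75 and 4.56% past row 20000, and are furthest apart in rows 1001 to 5000 (28.7 and 16.8%).

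Wider regions were called again more often. On chromosome 19 it was 4.37% for regions of 99 bp, 3.99% for 149 bp, 5.52% for 199 bp, 7.54% for 249 to 299 bp and 17.6% (14.3 to 21.5%) for 349 bp and wider. On chromosome 18 these were 2.12, 3.41, 4.33, 7.19 and 12.7% (10.2 to 15.5%), lower in each of the 5 classes, though the intervals of the chromosomes overlap in every class. With chromosome 18 weighted to the widths of chromosome 19 the difference was 1.26 points (0.38 to 2.14). Recalled regions of chromosome 19 had a median width of 249 bp and their midpoints lay a median of 72 bp from that of the SB431542 partner (82.5 bp on chromosome 18). Of the regions without a partner, 17.6% had an SB431542 region within 1 kb, as on chromosome 18 (17.4%).

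Seen from the SB431542 list, the chromosomes were closer. Of its 4852 regions on chromosome 19, 323 overlapped a DMSO region (6.66%, 5.99 to 7.39%), and on chromosome 18 415 of 6843 did (6.06%, 5.52 to 6.65%), with 6.39% in the list as a whole. Chromosome 19 was 0.59 points higher (-0.30 to 1.51), an interval that includes 0. By row, 4 of 6 regions of chromosome 19 in rows 1 to 100, 14 of 22 in rows 101 to 1000 and 27 of 76 in rows 1001 to 5000 had a DMSO partner. Of all rows, 40.7% of the first 1000 and 29.1% of the first 5000 did. Over the 23 chromosomes 16 of 90 regions in rows 1 to 100 (17.8%) had a DMSO partner. All 6 of those on chromosome 19 lay within 500 kb of the empty stretch. They had a median width of 1152 bp and an arithmetic share of 13.5%. Those at rows 4 and 19 met the same 149 bp DMSO region, row 242687, and that at row 72 met another of 149 bp, row 244057. Over all rows the arithmetic shares differed, 3.08% on chromosome 19 and 3.72% on chromosome 18. The observed shares were 2.16 (1.94 to 2.40) and 1.63 times these (1.48 to 1.79).

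SMAD2 regions overlapped TEAD4 less often on chromosome 19 than on chromosome 18, and the share given by density was lower as well. In DMSO cells 388 of 8401 SMAD2 regions overlapped TEAD4 (4.62%, 4.19 to 5.09%), against 668 of 11616 on chromosome 18 (5.75%, 5.34 to 6.19%) and 5.29% in the list as a whole. Chromosome 19 minus chromosome 18 came to -1.13 points (-1.75 to -0.51). Only chromosome 22 had a lower share. The arithmetic share was 2.73% on chromosome 19 and 3.30% on chromosome 18, and the ratios to it were 1.69 (1.53 to 1.86) and 1.75 (1.62 to 1.88), with intervals that overlap.

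From the TEAD4 side there was little difference. Of the TEAD4 regions of DMSO cells 388 overlapped SMAD2 on chromosome 19 (8.19%, 7.44 to 9.01%) and 668 on chromosome 18 (8.44%, 7.85 to 9.08%), with 7.67% in the list as a whole. Chromosome 19 minus chromosome 18 came to -0.25 points (-1.23 to 0.76). Of the chromosome 19 rows, 1 of 6 in rows 1 to 100, 3 of 19 in rows 101 to 1000 and 13 of 80 in rows 1001 to 5000 overlapped SMAD2. Of all TEAD4 rows, 12% of the first 1000 and 11.7% of the first 5000 did. On chromosome 19 the share rose with width, from 4.37% of the TEAD4 regions of 99 bp to 15.1% (12.1 to 18.8%) of those of 349 bp and wider. In the first 6 Mb, 25 of 801 SMAD2 regions (3.12%, 2.12 to 4.57%) overlapped TEAD4, and between 20 Mb and the empty stretch 40 of 669 (5.98%, 4.42 to 8.04%). TEAD4 had 61.8 and 99.6 regions per Mb in these stretches, and the intervals of the shares overlap.

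By row of the SMAD2 list, few regions of chromosome 19 overlapped a TEAD4 region of DMSO cells at any row. None of the 3 SMAD2 regions in the first 100 rows overlapped TEAD4, nor did 15 of the 16 in rows 101 to 1000. In rows 1001 to 5000, 5 of 80 did (6.25%, 2.70 to 13.8%). Of all SMAD2 rows, 7.7% of the first 1000 and 7.72% of the first 5000 overlapped TEAD4.

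On chromosome 19, 27 TEAD4 regions of DMSO cells overlapped both other lists (0.57%, 0.39 to 0.83%), with 37 on chromosome 18 (0.47%) and 0.516% over the whole list. They were spread over both arms, 13 on the short and 14 on the long. Under SB431542, 6.96% (4.83 to 9.94%) of the 388 TEAD4 regions with SMAD2 were called again, and 6.69% (5.99 to 7.47%) of the 4348 without. The shares were 0.27 points apart (-2.01 to 3.33), a difference not detectable with these numbers.

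The leading TEAD4 region of chromosome 19 in DMSO cells was row 2 of the list, chr19:2462901-2463499, and is 599 bp wide. Its SB431542 partner, row 435, lies inside it at chr19:2463009-2463439. A SMAD2 region of 99 bp at chr19:2463201-2463299 lies inside both, but far down its list (row 416277), so this is 1 of the 27 regions in all 3 lists. A further TEAD4 region called high in both treatments, chr19:2540701-2541199 (row 309, SB431542 row 834), lies 77.2 kb from it.

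The next 4 rows of chromosome 19 were called again under SB431542 as well and had no SMAD2 region. They were chr19:45879651-45879999 (row 40, SB431542 row 450), chr19:782301-782899 (row 42, row 683), chr19:50268651-50269249 (row 52, row 1069) and chr19:45311001-45311799 (row 85, row 645). At 799 bp the last of these is as wide as any TEAD4 region of the DMSO list on this chromosome. On chromosome 18 the first row, chr18:22627951-22628599 (row 48), had its SB431542 partner only at row 8656.

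Among 613 TEAD4 regions that both treatments placed within 5000 rows of the top, 18 were on chromosome 19 (2.94%, 1.87 to 4.59%) and 10 on chromosome 18 (1.63%). Chromosome 19 supplied 2.1% of the first 5000 DMSO rows and 2.08% of the first 5000 SB431542 rows, both inside that interval. For chromosome 18 these shares were 2.52% and 2.16%. The 18 regions of chromosome 19 had a median width of 449 bp, and 9 lay on each arm. Of them 3 overlapped SMAD2, as did 11.7% of the first 5000 DMSO rows. They run from chr19:290351-290849 (row 90, SB431542 row 874) to chr19:54770051-54770299 (row 323, row 1383). None of them lies between chr19:15217951-15218199 and chr19:33513301-33513749, 18295 kb apart, which includes the empty stretch and the inner short arm, where TEAD4 regions of DMSO cells were dense. High rows were few there, however: the 1 Mb windows from 20 to 24 Mb held 1, 1, 0 and 2 of the first 5000 DMSO rows. The gap was picked out after the positions of the 18 regions were seen and was not tested. The nearest neighbours among the 18 regions are chr19:45311001-45311799 and chr19:45349951-45350399, 38.2 kb apart. Of the second, row 4876, the partners were SB431542 row 2318 and SMAD2 row 281986.

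High TEAD4 rows of DMSO cells with no SB431542 partner began at row 376, chr19:48302351-48302699, which overlaps a 99 bp SMAD2 region (row 325427). They went on with chr19:18457001-18457299 (row 517), chr19:33887901-33888299 (row 587), chr19:50860501-50860849 (row 712) and chr19:12772001-12772549 (row 796), none of which overlaps SMAD2. They are 299 to 549 bp wide, within the range of the recalled regions above. Since the DMSO and SB431542 lists differ in make, a missing partner is not a measured loss of TEAD4.

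The head of the SB431542 list on chromosome 19 lay at the edge of the empty stretch. Its first 5 rows were chr19:27731699-27732890 (row 4), chr19:27737387-27739022 (row 11), chr19:27732913-27733634 (row 19), chr19:27735108-27737042 (row 72) and chr19:27733771-27734881 (row 85), with widths of 722 to 1935 bp against a median of 145 bp. Within 20 kb of the edge the SB431542 list held 12 regions that covered 8.34 kb, 8 of them among its first 1000 rows. The TEAD4 list of DMSO cells held 4 there, the first at row 199471, and the SMAD2 list none. Chromosome 18 was alike in this. Its first SB431542 row, chr18:18516785-18519424 (row 8), is 2640 bp wide and lies just past its own empty stretch, chr18:15408100-18510995.

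Of the 28 regions of chromosome 19 in the first 1000 SB431542 rows, 19 lay within 500 kb of the empty stretch. Without these, 9 regions were left, or 0.9% (0.47 to 1.70%) of the 1000 rows, against 2.8% (1.94 to 4.02%) with them. In the first 100 rows the number went from 6 to 0. Regions near the empty stretches of other chromosomes were not taken out. The lower share is therefore smaller by construction and cannot be set against the share of the span. Of the first 5 SB431542 rows without a DMSO partner, the first on the short arm was row 265, chr19:24184003-24184233. It lies on the short arm, still within 500 kb of the empty stretch. Another was chr19:27967043-27967243 (row 408). Rows 11, 85 and 260 (chr19:27739084-27739579), also without a partner, lie directly at the edge.

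The first SMAD2 rows of chromosome 19 had no TEAD4 partner, like most rows of that list. Those at chr19:56328151-56328449 (row 42), chr19:51239751-51240049 (row 65), chr19:9533601-9533899 (row 66), chr19:7150151-7150449 (row 105) and chr19:23964401-23964649 (row 193) overlapped no TEAD4 region of either treatment. They are 249 to 299 bp wide. Of all the first 1000 SMAD2 rows only 7.7% overlapped a TEAD4 region of DMSO cells. On chromosome 18 the first SMAD2 row, chr18:36492001-36492399 (row 38), likewise had no TEAD4 partner.

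Among SMAD2 and TEAD4 pairs of DMSO cells, that with the smallest sum of rows was at chr19:50527001-50527349 for SMAD2 (row 3933), inside TEAD4 at chr19:50527001-50527399 (row 9010). The next was SMAD2 at chr19:55224151-55224399 (row 5839) with TEAD4 at chr19:55224351-55224599 (row 7793), which share only their ends. Neither was called for TEAD4 under SB431542. At chr19:45020101-45020399 the SMAD2 region (row 1785) and the TEAD4 region (row 16357) had the same start and end, and again there was no SB431542 partner.

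The other pairs named by this rule were also called under SB431542. They were SMAD2 at chr19:54116151-54116399 (row 15061) with TEAD4 at chr19:54116001-54116349 (row 1540), and SMAD2 at chr19:15630251-15630599 (row 3493) with TEAD4 at chr19:15630401-15630699 (row 21837). Their SB431542 partners were far down, at rows 194966 and 144729. The smallest sum over all 3 lists was at chr19:18615451-18615849 (TEAD4 in DMSO row 3512, SB431542 row 21306, SMAD2 row 29641), followed by chr19:39637801-39638099 (rows 393, 9844 and 90815). At chr19:41729301-41729749 both TEAD4 ranks were high (rows 755 and 1121) while SMAD2 was at row 106160. In none of the 5 places were all 3 ranks among the first 5000.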

How the data were processed

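Chromatin immunoprecipitates of WA09 cells were sequenced, and 3 lists of called regions were used, 1 per library. Each deposited list gives chromosome, start and end in 3 columns, and holds no other value such as a score. The submitters' processing notes name hg19. Aligner, caller, threshold and control library: not given in the sources used here. As the lists hold no read counts, depth is unknown and no occupancy was computed. Lists were tied to samples by antibody target and treatment. Starts were raised by 1 bp on reading the lists as BED.

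Regions were counted by midpoint in 1 Mb windows, and shared regions overlap by at least 1 bp. An empty stretch is at least 1 Mb without a region of any list. Shares carry 95% Wilson intervals, differences Newcombe intervals (normal ones for weighted shares), and densities exact Poisson intervals. The arithmetic share is 1 minus exp of minus the partner's density in the window times the summed widths, less the grid step where both lists share the 50 bp grid. The widths summed are the region's own and the partner's mean on that chromosome. The 4 comparisons of chromosomes 19 and 18 have no p-value, since each group has 1 library. Named regions follow row order: the first 5 rows of each list, the 5 smallest row sums of shared regions, the first 5 rows without a partner, and the 3 windows with most and fewest regions (ties also named). Members, lists and alternatives were chosen with earlier results of these data known. Zinc finger windows and nearest genes need an hg19 annotation and were not analysed here. Overlap counting was tested on simulated data. Python 3.11.15, NumPy 2.4.6, pandas 2.3.3, SciPy 1.17.1 and matplotlib 3.10.9 were used.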

Additional observations from a re-analysis of the deposited data

How the results depend on the processing

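The share of TEAD4 regions of DMSO cells called again under SB431542 stayed higher on chromosome 19 than on 18, with an interval above 0, in all 9 alternatives (0.75 to 3.53 points). Of these, 3 for each overlap, were chosen after seeing the data: weighting by width, weighting by row, and all other chromosomes as comparison. The cause of each shift below was not tested. From the SB431542 list the difference of 0.59 points, whose interval includes 0, passed 0 with midpoints within 100 bp (0.75), the first 50% of rows (1.34) and the first 10% (3.19). The lower share of SMAD2 regions in TEAD4 no longer had an interval without 0 with an overlap of 50% of both regions (-0.30) and in the first 50% of rows (-0.49), and changed sign in the first 10% (0.17, interval -0.79 to 1.30). The difference of TEAD4 regions in SMAD2, not detectable to begin with, changed sign with 50% of both regions (0.053), in the first 10% of rows (0.17) and against all other chromosomes (0.54). Chromosome 19 made up 1.76% of the first 50% and 1.88% of the first 10% of TEAD4 rows in DMSO (all rows 1.64%), 1.95% of the first 10% under SB431542 (all rows 1.85%), and 1.95 and 1.90% of the first 50% and 10% of SMAD2 rows, below its share of all rows. In the first 10% of rows the window correlation of TEAD4 under SB431542 with SMAD2 changed sign (-0.033), and the density of the long arm to the short arm rose from 1.21 to 1.37 for that TEAD4 list. No paired analysis was possible because there is only 1 library a group, and none could be left out. The windows of zinc finger genes were not run, since they need an hg19 annotation. Read depth and calling thresholds are unknown, which limits what a missing call means.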
